A study of Mus musculus with 9 samples.

Results

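Small leucine rich proteoglycans and a few fibroblast markers were read in ventricles of mice that overexpress the insulin-like growth factor 1 receptor (IGF1R). The members were 9 named genes: the proteoglycan core proteins Dcn, Bgn, Lum and Fmod, the related cartilage protein Chad, the matrix proteins Mgp and Dpt, the receptor Pdgfra and the transcription factor Tcf21. A probe set was taken where the platform annotation gave it 1 symbol and that symbol was a member, which found 13 of the 12488 probe sets on the array. They are 9 of the 8251 genes that the array names in this way. The rule uses no measured value, but the members were chosen with earlier results of these data known. A filter on dim probe sets, which asked for a signal over the 40th percentile of an array on 3 or more arrays, left 10 of the 13 for testing, covering 8 of the 9 genes.

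The arrays held RNA of both ventricles from 9 female mice aged 3 months, 1 mouse per array. In 3 mice the IGF1R transgene was combined with a dominant negative form of the lipid kinase PI3K (p110), the IGF1R-dnPI3K group. A constitutively active form of the same kinase took its place in 3 further mice, IGF1R-caPI3K, and 3 mice had the IGF1R transgene alone. Every mouse therefore overexpressed the receptor, and animals without a transgene or with a PI3K transgene alone were not analysed here. Neither the strain nor the promoter of any transgene is stated in the labels. The comparisons ask what PI3K activity does to the expression of these genes in an IGF1R heart.

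Small leucine rich proteoglycans are secreted proteins built of leucine rich repeats, most of which carry chondroitin, dermatan or keratan sulfate chains. They bind collagen fibrils and set how thick and how evenly spaced the fibrils become, and decorin and biglycan also bind growth factors such as TGF beta. In the heart they are made mainly by fibroblasts, the cells that Pdgfra and Tcf21 mark, and mice that lack some of them have altered collagen fibrils.

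Across the members, only lumican passed with dominant negative PI3K against both other groups, and its signal was less than that in either. Under other processing or with an array left out, its call held in 11 of 16 alternatives against IGF1R mice. Against IGF1R-caPI3K mice it held in 5 of 16. Mgp and the dimmer biglycan probe set also read lower in every IGF1R-dnPI3K mouse than in any other mouse, but did not pass as reported. Decorin, a relative of lumican, passed in no comparison. Chondroadherin had higher signals in all 6 mice with a PI3K transgene than in the 3 IGF1R mice, where it was under the filter on dim probe sets, so its tests depend on that filter. Fmod was not tested, and the other members did not pass in any comparison. The plot of member signals gives all 13 probe sets with each mouse as a point, on an axis of its own, so heights compare groups and not genes.

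**Figure D1:**
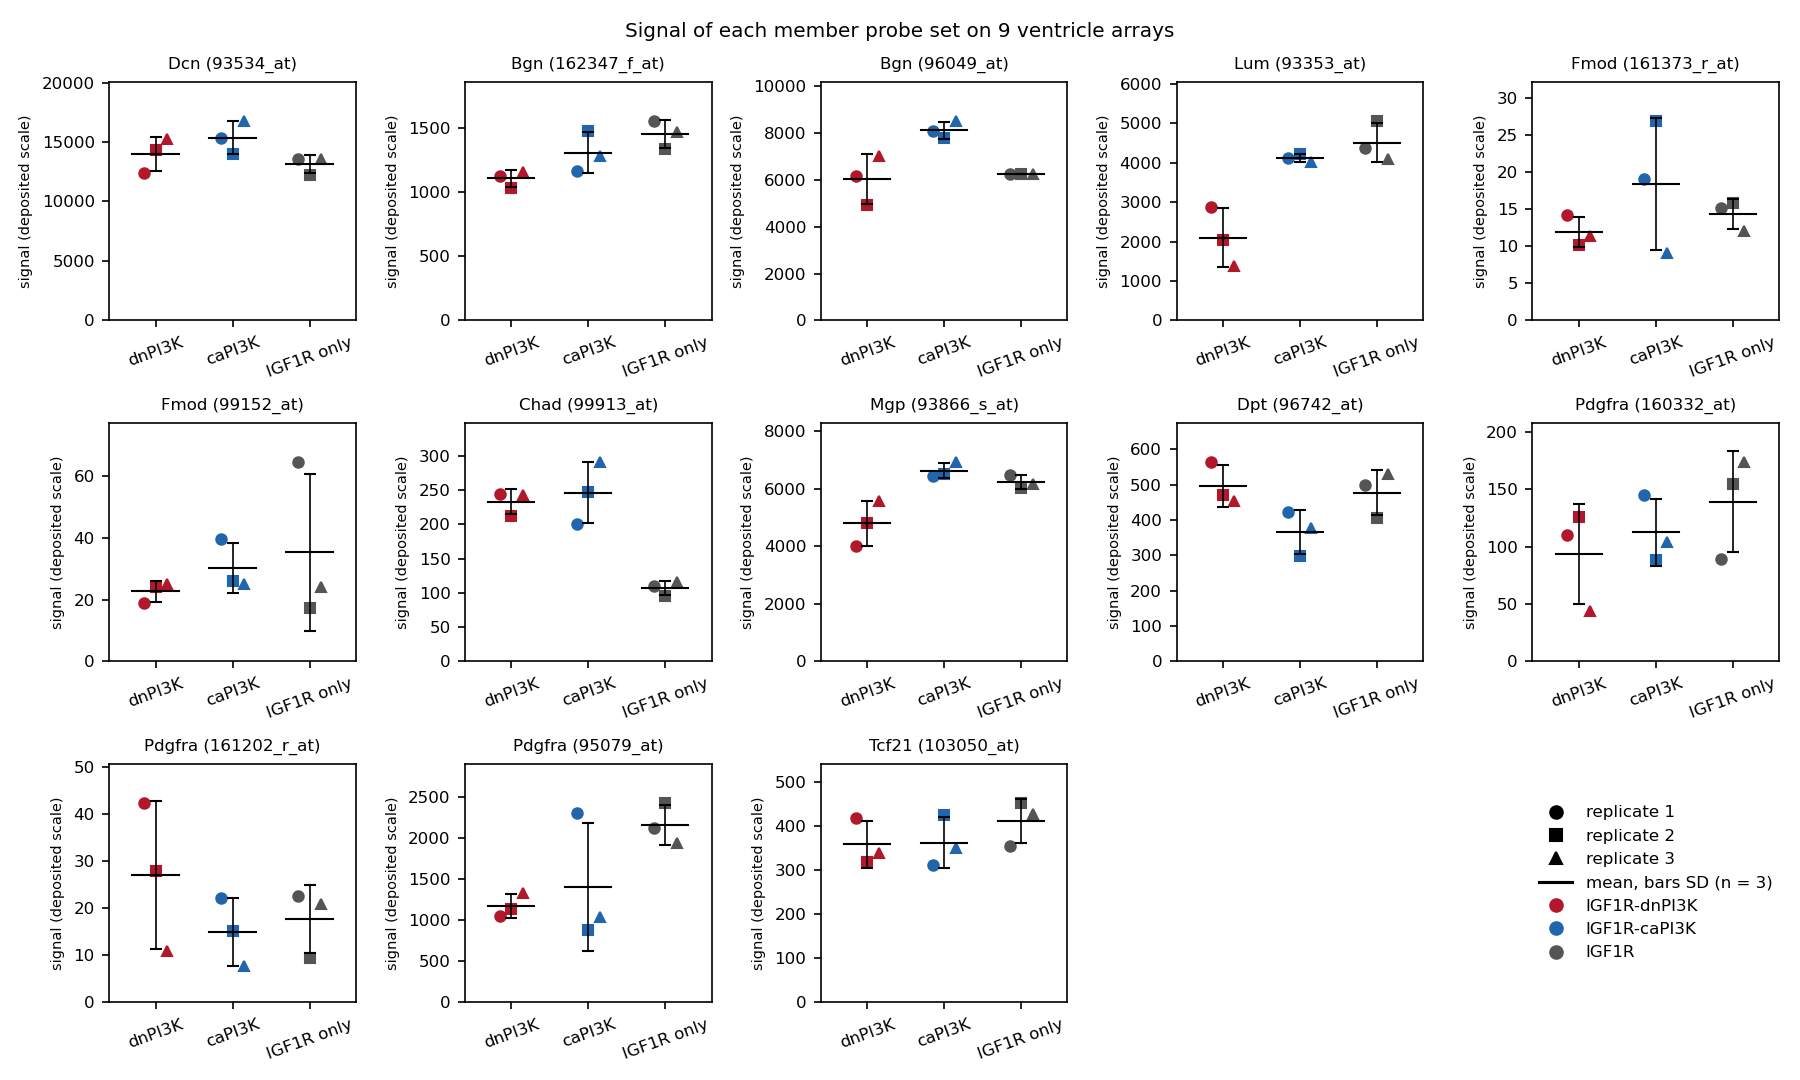
Deposited signal (linear scale, arbitrary units, each axis from 0) of every member probe set on 9 arrays, with IGF1R-dnPI3K (red), IGF1R-caPI3K (blue) and IGF1R (grey) mice from left to right, 1 point per mouse, a line for the mean and bars for the SD (n = 3). Lum lies lowest in the 3 IGF1R-dnPI3K mice (1383 to 2867), and Chad lies lowest in the 3 IGF1R mice (95.1 to 115.3).

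Median signal per array ran from 160.6 to 196.7. The 3' to 5' ratio of the CreX control, an RNA added during processing, was 1.79 to 1.83 with dominant negative PI3K, 1.74 to 1.89 with active PI3K and 1.05 to 1.26 in IGF1R mice, so a difference in array processing cannot be told apart from the IGF1R group. For Gapdh, a sign of RNA quality, the same ratio also set IGF1R mice apart, at 0.844 to 0.943 in IGF1R-dnPI3K, 0.843 to 0.873 in IGF1R-caPI3K and 0.747 to 0.818 in IGF1R mice. The Actb ratio did not set them apart, at 1.09 to 1.15 in IGF1R-dnPI3K, 1.01 to 1.04 in IGF1R-caPI3K and 1.04 to 1.24 in IGF1R mice. The ratio of pyruvate carboxylase was 1.79 to 3.25 in IGF1R-dnPI3K, 1.57 to 1.87 in IGF1R-caPI3K and 1.40 to 1.71 in IGF1R mice. The array of IGF1R-dnPI3K replicate 3 had the lowest mean correlation with the others across probe sets (0.927, against 0.947 to 0.956). The ventricular light chain Myl2 averaged 26470 ± 4628 in IGF1R-dnPI3K and 18867 ± 227 in IGF1R mice (SD, n = 3 each), as a check of the labelled tissue. Probe sets of Y-linked genes and pseudogenes, which female mice lack, reached 63.9 and serve as the background here, in place of detection calls. In whole ventricle, fewer fibroblasts and less RNA per fibroblast cannot be told apart.

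Decorin (Dcn, probe set 93534_at) carries 1 dermatan or chondroitin sulfate chain and binds type I collagen. Its signals were 12432, 14366 and 15224 in IGF1R-dnPI3K mice, 15330, 13958 and 16740 in IGF1R-caPI3K mice, and 13611, 12243 and 13609 in IGF1R mice. The 3 IGF1R-caPI3K values lay above the 3 IGF1R values, while those of IGF1R-dnPI3K mice overlapped both groups. On the log2 scale, IGF1R-caPI3K and IGF1R mice differed by 0.22 ± 0.11 (SE; adjusted p = 0.314 in limma). The difference was 0.09 between IGF1R-dnPI3K and IGF1R mice, with a 95% interval of -0.16 to 0.33 (adjusted p = 0.621), and that sign turned to -0.23 after quantile normalization. The change of lumican in the same comparison, -1.16, lies outside that interval.

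Biglycan (Bgn), the other class I member, had probe sets that behaved unequally. The brighter one, 96049_at, read 6151, 4923 and 7040 in IGF1R-dnPI3K mice, 8075, 7773 and 8503 in IGF1R-caPI3K mice, and 6245, 6269 and 6240 in IGF1R mice. All 3 IGF1R-caPI3K values were above every other array. Neither difference passed: 0.38 ± 0.13 for IGF1R-caPI3K over IGF1R (adjusted p = 0.158) and 0.44 ± 0.13 for IGF1R-caPI3K over IGF1R-dnPI3K (adjusted p = 0.133). Without IGF1R-dnPI3K replicate 3 both passed, at 0.38 (adjusted p = 0.0339) and 0.56 (adjusted p = 0.0356). That array is in neither group of the first comparison and enters it only through the shared estimate of spread. With only the 2 groups compared in the fit, the first passed (0.38 ± 0.06, limma adjusted p = 0.0132) and the second did not (adjusted p = 0.284). Between IGF1R-dnPI3K and IGF1R mice it differed by -0.07 ± 0.13, and by 0.10 when arrays were scaled to a common median. The second probe set, 162347_f_at, read 1126, 1031 and 1157 in IGF1R-dnPI3K mice, 1163, 1474 and 1279 in IGF1R-caPI3K mice, and 1548, 1330 and 1465 in IGF1R mice. Here the IGF1R-dnPI3K values were the lowest, at -0.39 ± 0.12 against IGF1R mice (adjusted p = 0.0578), and those of IGF1R-caPI3K and IGF1R mice overlapped (-0.15 ± 0.12, adjusted p = 0.533). The f in its name marks a design that may match several transcripts of a family.

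The log2 ratio of the brighter to the dimmer biglycan probe set on the same array averaged 2.64 ± 0.21 in IGF1R-caPI3K and 2.11 ± 0.11 in IGF1R mice (SD, n = 3 each). The groups did not overlap, and the exact permutation test gave p = 0.1 (two-sided), the smallest that 3 against 3 arrays can give. The sign of the estimate for the gene in IGF1R-caPI3K over IGF1R mice thus depends on which probe set is read. In IGF1R-dnPI3K mice the ratio averaged 2.44 ± 0.18 (SD, n = 3), which also lay above IGF1R mice (2.26 to 2.61, against 2.01 to 2.24). The CreX and Gapdh ratios, but not that of Actb, separate the same arrays. The part of these ratios in the unequal reading of the biglycan probe sets was not tested.

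Lumican (Lum, probe set 93353_at) is a class II keratan sulfate proteoglycan that spaces collagen fibrils. It read 2867, 2052 and 1383 in IGF1R-dnPI3K mice, 4115, 4213 and 4014 in IGF1R-caPI3K mice, and 4380, 5053 and 4091 in IGF1R mice. Every IGF1R-dnPI3K value was below every value of the other groups, and the IGF1R-caPI3K values overlapped those of IGF1R mice. Lum fell to 2101 ± 743 in IGF1R-dnPI3K mice, against 4508 ± 494 in IGF1R mice (SD, n = 3 each). That is -1.16 ± 0.21 in log2 (SE; adjusted p = 0.0143 in limma). It was also higher in IGF1R-caPI3K than in IGF1R-dnPI3K mice, 4114 ± 99.2 against 2101 ± 743, by 1.03 ± 0.21 (adjusted p = 0.0444). Between IGF1R-caPI3K and IGF1R mice the difference was -0.13, with a 95% interval of -0.59 to 0.34 (adjusted p = 0.784).

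The fall of Lum was -0.89 (adjusted p = 0.00914) without IGF1R-dnPI3K replicate 3, the array that stands apart. It did not pass without IGF1R replicate 2 (-1.07, adjusted p = 0.0504) or IGF1R replicate 3 (-1.23, adjusted p = 0.0527), with no filter (adjusted p = 0.0565) or with only the 2 groups in the fit (adjusted p = 0.0532), and it was -0.58 (adjusted p = 0.406) when the number series of the mice entered as a block. Of the IGF1R-dnPI3K mice only replicate 1 shares a series with the other groups in that fit. The pyruvate carboxylase ratio, like Lum, did not overlap between IGF1R-dnPI3K and IGF1R mice, and its part in the fall was not tested. Lum in IGF1R-caPI3K over IGF1R-dnPI3K mice passed without IGF1R-dnPI3K replicate 3 (0.76, adjusted p = 0.0444) or replicate 1 (1.29, adjusted p = 0.00216), and did not pass without any 1 of the other 7 arrays (1.01 to 1.05). With the number series as a block it was 0.45 (adjusted p = 0.826).

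Lum and Dcn lie next to each other on mouse chromosome 10, with Kera and Epyc following, in the RefSeq annotation of GRCm38.p6. Their signals parted: the log2 ratio of Lum to Dcn on the same array was -2.79 ± 0.67 in IGF1R-dnPI3K, -1.90 ± 0.17 in IGF1R-caPI3K and -1.55 ± 0.24 in IGF1R mice (SD, n = 3 each). The IGF1R-dnPI3K arrays overlapped neither other group (exact permutation test, two-sided, p = 0.1 for each, the smallest possible), and this ratio was chosen after the values had been seen. Kera and Epyc, the keratocan and epiphycan genes, peaked at 92.5 and 36.8 on any array and were not tested. The plot of within-array ratios shows both ratios for each mouse.

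**Figure D2:**
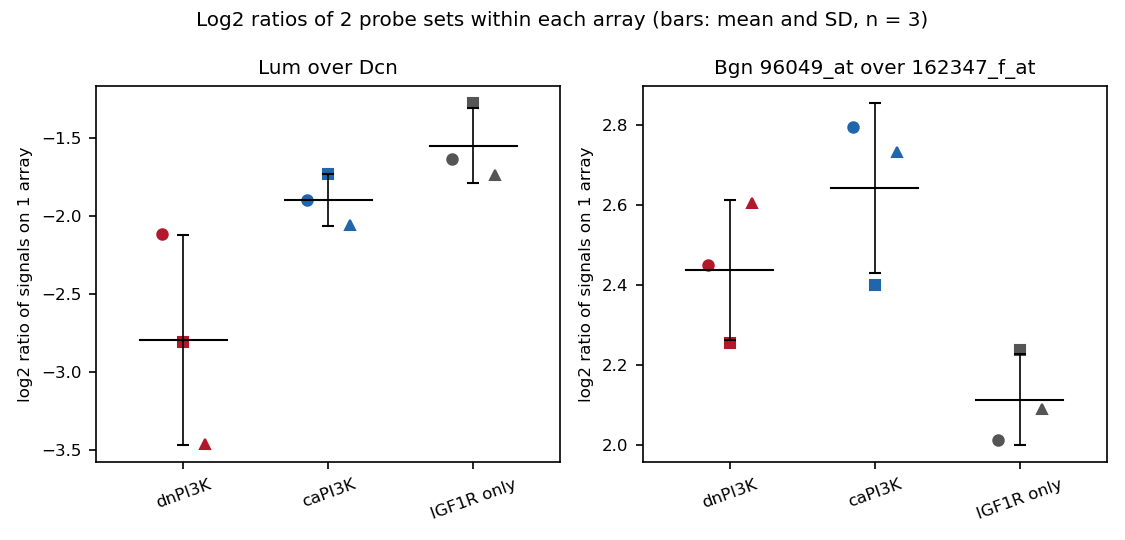
Log2 ratio of the signals of a pair of probe sets on the same array (y axis) in IGF1R-dnPI3K, IGF1R-caPI3K and IGF1R mice, 1 point per mouse, with mean and SD (n = 3). Lum over Dcn is lowest in the IGF1R-dnPI3K mice (-3.46 to -2.12), and the ratio of the biglycan probe sets is lowest in the IGF1R mice (2.01 to 2.24).

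Fibromodulin (Fmod), the second class II member and a proteoglycan of tendon and cartilage, was at background but for 1 array. Its probe set 99152_at read 18.9 to 25.1 in IGF1R-dnPI3K, 25.1 to 39.7 in IGF1R-caPI3K and 17.3 to 64.5 in IGF1R mice. The other, 161373_r_at, stayed between 9.1 and 26.8 on all 9 arrays. Neither passed the filter, so the gene was not tested.

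Chondroadherin (Chad, probe set 99913_at) is a leucine rich repeat protein of cartilage without long sugar chains that binds collagen and integrins. Its signals were 244.0, 211.8 and 243.0 in IGF1R-dnPI3K mice, 201.1, 247.4 and 290.6 in IGF1R-caPI3K mice, and 109.8, 95.1 and 115.3 in IGF1R mice. The lowest value with a PI3K transgene was well above the highest IGF1R value, and the groups with active and dominant negative PI3K overlapped. Chad rose to 233 ± 18.3 in IGF1R-dnPI3K mice, against 107 ± 10.4 in IGF1R mice (SD, n = 3 each), or 1.13 ± 0.20 higher in log2 (SE; adjusted p = 0.0136 in limma). It rose to 246 ± 44.8 in IGF1R-caPI3K mice, by 1.2 ± 0.20 over the same IGF1R mice (adjusted p = 0.0482). Both comparisons share the 3 IGF1R arrays. Between IGF1R-caPI3K and IGF1R-dnPI3K mice Chad differed by 0.07, with a 95% interval of -0.37 to 0.51 (adjusted p = 0.901).

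Chad passed the filter on the 6 arrays with a PI3K transgene and on 0 of the 3 IGF1R arrays, so it entered the test through the groups where it was high, and its calls are no independent support. With no filter the adjusted p was 0.0289 in IGF1R-dnPI3K and 0.0694 in IGF1R-caPI3K over IGF1R mice, so the second did not pass. The CreX and Gapdh ratios, but not that of Actb, separate the same arrays in the same way. The part of these ratios in the result was not tested. Over IGF1R, the IGF1R-dnPI3K call held without each of the 9 arrays (1.05 to 1.19) and was lost with the number series as a block (1.28, adjusted p = 0.241). The IGF1R-caPI3K call was lost without any 1 of the 6 arrays compared or IGF1R-dnPI3K replicate 2 (1.07 to 1.33, highest adjusted p = 0.168). Cartilage and tendon markers were mixed. Some were at background: aggrecan (Acan) peaked at 29.9 on any array, the matrilin genes Matn3 at 38.7 and Matn1 at 17.4. Col2a1, Col10a1 and Col11a1, which encode cartilage collagens, reached 115.2, 118.4 and 123.4 and were not tested. Others were above background on all 9 arrays, the collagen IX genes Col9a1 (106.3 to 346.4) and Col9a2 (191.5 to 377.5) and the tendon factor gene Scx (775.0 to 1691). The summed signal of the 11 cartilage and tendon markers on the array was 1646 to 1787 in IGF1R-dnPI3K, 1520 to 2634 in IGF1R-caPI3K and 1579 to 1763 in IGF1R mice. None of the 3 that were tested passed in any comparison.

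The promoters of Chad, Pdgfra and Dpt are printed as examples. Chad passed in both comparisons with IGF1R mice, but the filter let it in through the groups where it was high. Pdgfra and Dpt passed in no comparison, and no contrast between the promoters is drawn. Each runs from 250 bases before the gene's start to 50 after it, 5′ to 3′ on the plus strand, from RefSeq on GRCm38.p6: Chad at chr11:94564797-94565096, Pdgfra at chr5:75152001-75152300 and Dpt at chr1:164796413-164796712. Capitals mark matches on either strand to CANNTG (the E box that basic helix-loop-helix factors such as Tcf21 bind), TATAAA (the TATA box), GTAAACA (a FoxO core) and GGGCGG (the GC box).
Chad: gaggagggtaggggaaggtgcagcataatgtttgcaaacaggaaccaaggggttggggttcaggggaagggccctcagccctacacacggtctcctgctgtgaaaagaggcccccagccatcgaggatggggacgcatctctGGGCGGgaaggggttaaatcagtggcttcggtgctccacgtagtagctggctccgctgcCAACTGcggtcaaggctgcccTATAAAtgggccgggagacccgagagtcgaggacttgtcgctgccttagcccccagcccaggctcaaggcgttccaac
Pdgfra: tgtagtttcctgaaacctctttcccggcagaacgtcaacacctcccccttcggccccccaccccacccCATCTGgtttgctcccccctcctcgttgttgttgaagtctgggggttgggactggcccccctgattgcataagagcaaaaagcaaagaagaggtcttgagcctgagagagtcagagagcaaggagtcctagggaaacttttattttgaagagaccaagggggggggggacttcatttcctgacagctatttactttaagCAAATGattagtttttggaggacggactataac
Dpt: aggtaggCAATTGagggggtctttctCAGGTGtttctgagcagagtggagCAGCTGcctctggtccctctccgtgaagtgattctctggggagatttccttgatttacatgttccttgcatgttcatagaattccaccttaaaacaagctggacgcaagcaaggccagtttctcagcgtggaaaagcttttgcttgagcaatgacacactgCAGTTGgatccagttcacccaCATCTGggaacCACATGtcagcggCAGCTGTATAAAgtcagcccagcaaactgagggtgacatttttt
Of the 32851 promoters of the same length in the table, 72.3% hold CANNTG, 13.6% TATAAA, 3.65% GTAAACA and 35.7% GGGCGG. The Chad promoter has 1 match each to the E box, the TATA box and the GC box, with TATAAA beginning 28 bases before the start. In Pdgfra there are 2 E boxes and no match to the other letters. Dpt has 7 E boxes, a number that 0.177% of promoters reach, the last of them ending where TATAAA begins, 12 bases after the annotated start. None of the 6 members with a promoter in the table holds the FoxO letters in this window. These matches describe letters and not binding.

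Matrix Gla protein (Mgp, probe set 93866_s_at) is a vitamin K dependent protein that keeps soft tissue from calcifying. It read 4006, 4790 and 5584 in IGF1R-dnPI3K mice, 6454, 6513 and 6913 in IGF1R-caPI3K mice, and 6487, 6018 and 6146 in IGF1R mice. The IGF1R-dnPI3K values lay below all others, but the difference fell short of the threshold: -0.39 ± 0.12 against IGF1R mice (SE, limma adjusted p = 0.0573) and 0.48 ± 0.12 for IGF1R-caPI3K over IGF1R-dnPI3K mice (adjusted p = 0.091). After quantile normalization both passed, at -0.59 (adjusted p = 0.00568) and 0.58 (adjusted p = 0.0121), and so did both without IGF1R-dnPI3K replicate 3, at -0.50 (adjusted p = 0.0144) and 0.60 (adjusted p = 0.0231). With a common median scaling the first was -0.22 (adjusted p = 0.378).

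Dermatopontin (Dpt, probe set 96742_at) is a small matrix protein that binds decorin and marks fibroblasts in many tissues. Its signals were 562.9, 470.0 and 454.3 in IGF1R-dnPI3K mice, 421.8, 298.9 and 377.0 in IGF1R-caPI3K mice, and 498.4, 404.8 and 528.9 in IGF1R mice. It was lowest with active PI3K, where it did not overlap IGF1R-dnPI3K mice but did overlap IGF1R mice. The differences were -0.45 ± 0.17 for IGF1R-caPI3K over IGF1R-dnPI3K (adjusted p = 0.253) and -0.39 ± 0.17 for IGF1R-caPI3K over IGF1R (adjusted p = 0.259). IGF1R-dnPI3K and IGF1R mice differed by 0.06 ± 0.17 (adjusted p = 0.839).

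The PDGF receptor alpha gene (Pdgfra), the common surface marker of cardiac fibroblasts, was read best by 95079_at. This probe set gave 1053, 1139 and 1333 in IGF1R-dnPI3K mice, 2303, 886 and 1036 in IGF1R-caPI3K mice, and 2121, 2424 and 1944 in IGF1R mice. All IGF1R-dnPI3K values were below all IGF1R values, and in the IGF1R-caPI3K group 1 mouse lay within the range of IGF1R mice while the other 2 lay below every IGF1R-dnPI3K value. The log2 difference from IGF1R mice was -0.88 ± 0.29 in IGF1R-dnPI3K (SE, limma adjusted p = 0.0645) and -0.75 ± 0.29 in IGF1R-caPI3K mice (adjusted p = 0.206). Without IGF1R-caPI3K replicate 1, the high one, the first passed at -0.88 (adjusted p = 0.0196) and the second was -1.17 (adjusted p = 0.0694). IGF1R-caPI3K over IGF1R-dnPI3K was 0.13 ± 0.29 (adjusted p = 0.856), and -0.29 without that array. The probe set 160332_at was dim, 44.3 to 173.6 over the 9 arrays, and differed by -0.65 ± 0.43 in IGF1R-dnPI3K and -0.28 ± 0.43 in IGF1R-caPI3K mice, neither of which passed. Without IGF1R-dnPI3K replicate 3 the first was -0.18, and leaving out 1 array put the second between -0.57 and -0.09. The last, 161202_r_at, stayed within background at 7.7 to 42.3 and was not tested.

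Tcf21 (probe set 103050_at) encodes a helix-loop-helix factor needed for cardiac fibroblasts to form from the epicardium. It read 416.9, 317.5 and 339.0 in IGF1R-dnPI3K mice, 312.4, 425.2 and 348.8 in IGF1R-caPI3K mice, and 354.1, 451.1 and 427.7 in IGF1R mice. All 3 groups overlapped. Its differences from IGF1R mice were -0.20, with a 95% interval of -0.58 to 0.18, in IGF1R-dnPI3K mice (adjusted p = 0.444) and -0.19, with an interval of -0.57 to 0.19, in IGF1R-caPI3K mice (adjusted p = 0.593). A change of -1.16, that of Lum in IGF1R-dnPI3K mice, lies outside both intervals. It lies inside those of both tested Pdgfra probe sets in IGF1R-dnPI3K over IGF1R mice (95079_at, -1.52 to -0.25, and 160332_at, -1.61 to 0.3). The plot of log2 changes sets the 10 tested probe sets side by side.

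**Figure D3:**
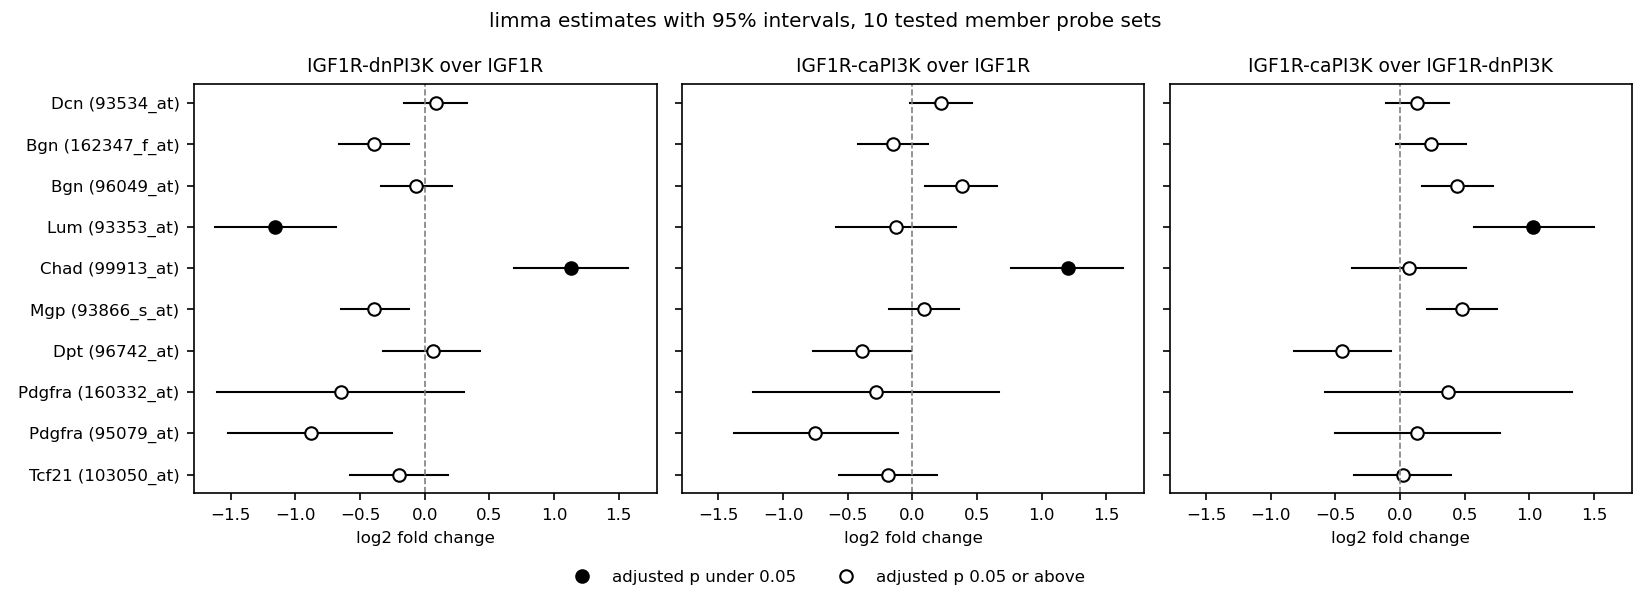
Log2 fold change (x axis) with 95% intervals of the 10 tested member probe sets in the 3 comparisons, filled where the limma adjusted p was under 0.05. Lum (-1.16) and Chad (1.13) are filled for IGF1R-dnPI3K over IGF1R, Chad (1.2) for IGF1R-caPI3K over IGF1R and Lum (1.03) for IGF1R-caPI3K over IGF1R-dnPI3K.

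Read as a list, 1 of the 10 tested probe sets rose (Chad) and 1 fell (Lum) in IGF1R-dnPI3K over IGF1R mice, against 5.7% and 7.8% of all 7898 probe sets tested (13.5% in either direction). The filter let Chad in through the groups where it was high. Nothing is read from its rise or from its part in the counts below. At an unadjusted p under 0.05 the members counted 5 of 10, against 32.2% of all. The median log2 change was -0.30 for the members and -0.0944 for all. The groups did not overlap in 1 member upward and 4 downward (Lum, Mgp, Pdgfra 95079_at and Bgn 162347_f_at), where 13.6% and 20.8% of all probe sets did not overlap. In IGF1R-caPI3K over IGF1R mice 1 rose and 0 fell, against 0.152% and 0.0633% (0.215% in either direction); the 1 is Chad, which the filter let in through the groups where it was high, so nothing is read from this count. The medians were -0.14 for the members and -0.0351 for all. Chad, Dcn and Bgn 96049_at did not overlap upward and 0 downward, against 14% and 18.8%. At an unadjusted p under 0.05, 4 of the 10 counted there, against 18.4% of all. For IGF1R-caPI3K over IGF1R-dnPI3K, 1 was higher (Lum) and 0 lower, against 0.734% and 0.506% (1.24% in either direction), with medians of 0.18 and 0.0488. There 4 members did not overlap upward (Lum, Mgp and both Bgn probe sets) and 1 downward (Dpt), against 10.9% and 8.66%, and 4 of 10 had an unadjusted p under 0.05, against 15.4%. These 3 comparisons share arrays pairwise and are not independent. Because the members were chosen with earlier results of these data known, the shares are a description and no test.

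From a list of 16 leucine rich proteoglycans and their kin, 6 genes were tested, 4 of them members. In IGF1R-dnPI3K over IGF1R mice 1 rose and 2 fell (median -0.20), where 5.7% and 7.8% of all probe sets did. The second that fell was Ecm2, which encodes a matrix protein with decorin-like repeats: 2496 ± 486 in IGF1R-dnPI3K and 3503 ± 265 in IGF1R mice (SD, n = 3 each), or -0.50 ± 0.14 in log2 (SE, limma adjusted p = 0.0418). It did not pass with common median scaling (-0.34, adjusted p = 0.0896). Without IGF1R-dnPI3K replicate 3 the list had 1 rise and 1 fall, where 313 of all 7806 probe sets rose and 340 fell. Osteoglycin (Ogn), a class III member, differed by -0.34 ± 0.16 and 0.06 ± 0.24 on its 2 probe sets (adjusted p = 0.161 and 0.877). In IGF1R-caPI3K over IGF1R mice 1 rose, which was Chad, and 0 fell, against 0.152% and 0.0633% of all probe sets. Without IGF1R-dnPI3K replicate 3 it was 2 and 0, where 243 of all 7806 probe sets rose and 306 fell. For IGF1R-caPI3K over IGF1R-dnPI3K all 6 estimates were positive (median 0.28), 1 of which passed, that of Lum, where 0.734% of all probe sets were higher.

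Among fibroblast markers, 1 of 15 tested genes rose and 3 fell in IGF1R-dnPI3K over IGF1R mice (median -0.44), against 5.7% and 7.8% of all probe sets. Without IGF1R-dnPI3K replicate 3, 0 rose and 2 fell, where 313 and 340 of all 7806 probe sets did. This list holds Dpt, Pdgfra, Tcf21 and Mgp. The falls were those of the microfibril protein gene Mfap5 (-1.39 ± 0.25, adjusted p = 0.0143, its other probe set at 0.15), the surface sialomucin gene Cd34 (-0.68 ± 0.16, adjusted p = 0.0251) and Fap, fibroblast activation protein (-1.0 ± 0.29, adjusted p = 0.0451). The rise was that of fibulin 1 (Fbln1, 0.43 ± 0.12, adjusted p = 0.0369). After quantile normalization Fbln1 (adjusted p = 0.0535) and Fap (adjusted p = 0.0673) no longer passed. The summed signal of the 16 markers on the array was 12820 to 14475 in IGF1R-dnPI3K, 16771 to 18656 in IGF1R-caPI3K and 17422 to 18765 in IGF1R mice. The sum was thus lowest where Lum was, and its part in the fall of Lum was not tested. Bright genes such as Mgp weigh most in the sum, and 4 of the 15 tested estimates were positive in IGF1R-dnPI3K over IGF1R mice. In IGF1R-caPI3K over IGF1R mice none passed, the lowest p belonging to the collagen receptor gene Ddr2 (0.56 ± 0.17, adjusted p = 0.134). Cd34 was the 1 marker of 15 higher in IGF1R-caPI3K than in IGF1R-dnPI3K mice, by 0.82 ± 0.16 (adjusted p = 0.0378). Of all probe sets 0.734% were higher there.

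Of 16 tested genes for collagens and other proteins that the proteoglycans bind, 6 fell and 0 rose in IGF1R-dnPI3K over IGF1R mice (median -0.74), where 7.8% and 5.7% of all probe sets did. They included Postn, the periostin gene (-1.80 ± 0.39), the fibrillar collagen genes Col1a1 (-1.33 ± 0.35), Col3a1 (-1.90 ± 0.50) and Col5a2 (-1.35 ± 0.33), and the collagen binding protein gene Sparc (-1.10 ± 0.26), with adjusted p from 0.0192 to 0.0358. The count was also 6 under both other scalings. Without IGF1R-dnPI3K replicate 3 it was 1, with a median of -0.40, where 340 of all 7806 probe sets fell. In IGF1R-caPI3K over IGF1R-dnPI3K mice 3 were higher, Postn by 2.01 ± 0.39, Col1a1 by 1.78 ± 0.35 and Col5a2 by 1.62 ± 0.33 (adjusted p = 0.037 to 0.0405), and 0 without that array. Of all probe sets 0.734% were higher there, and 39 of 7806 without that array. In IGF1R-caPI3K over IGF1R mice 0 passed, with a median of 0.14.

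In the lists around the members' own pathways, counts stand against 13.5% of all probe sets called in IGF1R-dnPI3K over IGF1R, 0.215% in IGF1R-caPI3K over IGF1R and 1.24% in IGF1R-caPI3K over IGF1R-dnPI3K mice. None of 11 tested enzymes that build or sulfate the glycosaminoglycan chains passed in any comparison; in IGF1R-dnPI3K over IGF1R mice the lowest p belonged to Ugdh, which makes UDP-glucuronic acid (-0.36 ± 0.16, adjusted p = 0.135). Likewise 0 of 6 proteases and inhibitors passed. In IGF1R-dnPI3K over IGF1R mice the membrane metalloproteinase gene Mmp14 came nearest at -0.59 ± 0.18 (adjusted p = 0.0585). The inhibitor gene Timp3 followed in the other direction, at 0.91 ± 0.29 (adjusted p = 0.0624). With common median scaling 1 gene of this list rose in that comparison. Of 9 genes of the PDGF pathway the ligand gene Pdgfa rose, at 750 ± 28.2 in IGF1R-dnPI3K and 539 ± 25.2 in IGF1R mice (SD, n = 3 each), by 0.48 ± 0.11 (SE, adjusted p = 0.0247), while its receptor's bright probe set read lower. Pdgfa was 721 ± 45.7 in IGF1R-caPI3K mice (SD, n = 3), 0.42 ± 0.11 over IGF1R mice (adjusted p = 0.104). Without IGF1R-dnPI3K replicate 3, 1 gene of this list passed there, where 549 of all 7806 probe sets did. In a list of 9 tested genes around Mgp, which holds calcification and BMP signalling genes, 1 probe set rose in IGF1R-dnPI3K mice, that of the receptor gene Acvrl1 (0.62 ± 0.13, adjusted p = 0.019), whose other probe sets were at -0.17 and -0.03. Among receptors and ligands of the proteoglycans 1 of 10 fell, the VEGF receptor gene Kdr (-1.16 ± 0.25, adjusted p = 0.0185).

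Some markers of other cell types also passed in IGF1R-dnPI3K over IGF1R mice, where 5.7% of all probe sets rose and 7.8% fell. Without IGF1R-dnPI3K replicate 3, 313 of all 7806 rose and 340 fell. Of 8 tested myeloid markers 3 fell, namely Csf1r, Lyz2 and Mrc1 (2 without IGF1R-dnPI3K replicate 3), and the 13 on the array summed to 5719 to 7943 in IGF1R-dnPI3K, 9120 to 9534 in IGF1R-caPI3K and 7827 to 9044 in IGF1R mice. The 10 cardiomyocyte markers on the array summed to 187228 to 235243 in IGF1R-dnPI3K, 172855 to 182033 in IGF1R-caPI3K and 160776 to 172702 in IGF1R mice. Of those 10 markers 4 rose and 1 fell, but 0 rose and 4 fell after quantile normalization, so their direction depended on the scaling. Of 10 endothelial markers 1 rose and 2 fell (0 and 1 without IGF1R-dnPI3K replicate 3), and the falls include Kdr, already counted among the receptors. Of 4 adipocyte markers 1 rose, the lipase gene Lipe (1.26 ± 0.25, adjusted p = 0.0163). None of 7 smooth muscle and pericyte markers or 2 epicardial markers passed (1 and 0 without that array). Whether these shifts have a part in the fall of Lum was not tested.

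By pattern over the 9 arrays, the genes most like lumican were Pla2g4a, a phospholipase gene (Pearson r = 0.980), Emp1, a membrane protein gene (0.977), and Fshr, the follicle stimulating hormone receptor gene (0.975). Emp1 averaged 2178 in IGF1R-dnPI3K, 4404 in IGF1R-caPI3K and 4550 in IGF1R mice. Nearest to decorin were Gas6 (0.946), Trp53inp2 (0.910) and Cherp (0.893), and nearest to the brighter biglycan probe set were Coro1c (0.942), Atf4 (0.927) and Rangap1 (0.917). Lum and Dcn themselves had r = -0.25. These coefficients describe 9 arrays in 3 groups that share their scaling, and no test was made of them.

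How often a member call held is shown in the plot of adjusted p under other processing, where points left of the line are calls.

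**Figure D4:**
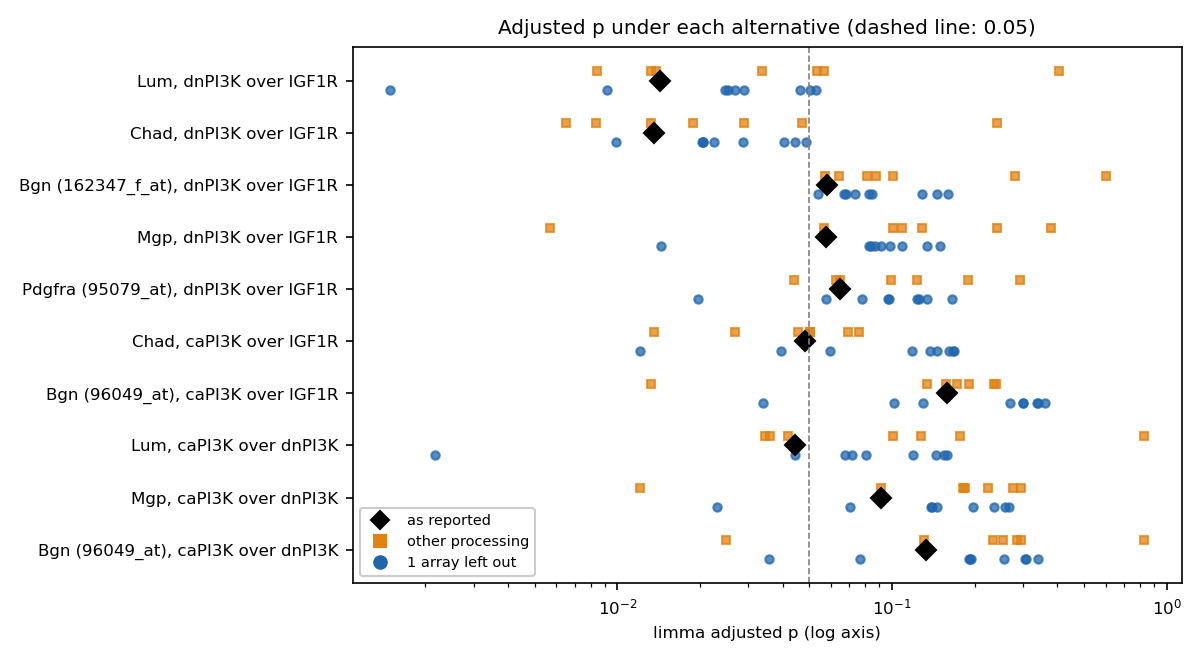
limma adjusted p (log axis) of 10 member results as reported (black diamonds), under 7 other ways of processing (orange squares) and with 1 of the 9 arrays left out (blue circles); the dashed line is 0.05. Chad in IGF1R-dnPI3K over IGF1R mice stays under the line in 15 of 16 alternatives and Lum in 11 of 16, while Chad in IGF1R-caPI3K over IGF1R and Lum in IGF1R-caPI3K over IGF1R-dnPI3K stay under it in 5 of 16 each.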

How the data were processed

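RNA of both ventricles was measured on 9 arrays, 3 per group, with groups taken from the sample titles. Replicate numbers follow the order of deposit and pair nothing. In the deposited table there is 1 linear intensity per probe set and array; per its values, the authors scaled every array to a 2% trimmed mean of 500.3 to 500.4. The summarization algorithm is not stated in the labels or the file header.

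Here the 66 control probe sets were left out, values under 32.4, the 20th percentile, were set to that floor before log2. The filter on dim probe sets (40th percentile of each array, 98.6 to 119) left 7898. All 9 arrays entered 1 fit in limma 3.58.1 (R 4.3.3) with a mean trend. Differences are log2 estimates ± SE, with p-values adjusted by Benjamini-Hochberg over all 7898, and a threshold of 0.05. They rest on 1 estimate of the spread between mice per probe set, shared by all 3 groups. The median SD of log2 signal was 0.26 in IGF1R-dnPI3K and 0.16 in each of the other groups. The p-values of IGF1R-caPI3K over IGF1R thus also carry the spread of IGF1R-dnPI3K mice. The number of mice limits the precision. The fit was checked on simulated data with independent noise and the same spread in every group. That check cannot show what unequal spread or an array that stands apart does to the calls.

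The members and gene lists were chosen with earlier results of these data known, so no list was tested as a whole. The list counts without IGF1R-dnPI3K replicate 3 and under other scalings were added after seeing the data. All member probe sets are given. From each list, up to 5 genes per comparison were eligible whose brightest tested probe set passed, or, with none, the 2 of lowest p; the text leaves some out. The genes of like pattern are the 3 of highest Pearson correlation for each of Dcn, Bgn and Lum.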

Additional observations from a re-analysis of the deposited data

How the results depend on the processing

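Over 16 alternatives the 30 member results gave 480 values, of which 422 kept both their direction and their side of the threshold. Most of the 30 had not passed as reported. In IGF1R-dnPI3K over IGF1R mice the calls held in 15 (Chad) and 11 (Lum) of 16 alternatives. Those of Chad in IGF1R-caPI3K over IGF1R and Lum in IGF1R-caPI3K over IGF1R-dnPI3K mice held in 5 of 16 each. Scaling to a common median put the median of all log2 changes at 0.075 (-0.0944 as reported) in IGF1R-dnPI3K over IGF1R and at 0.066 (-0.0351 as reported) in IGF1R-caPI3K over IGF1R mice; the changes of Lum (-0.99) and Chad (1.30 in both) kept their direction. That scaling gave 832 higher and 333 lower probe sets in IGF1R-dnPI3K over IGF1R mice, against 450 and 616 as reported.

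In IGF1R-dnPI3K over IGF1R mice, 1066 probe sets passed: 387 with no filter, 657 with no mean trend, 132 with only the 2 groups compared, 5 with a block for the number series of the mice, and 77 to 1856 with 1 array left out (211, 200 and 77 without IGF1R replicates 1, 2 and 3, 689 without IGF1R-caPI3K replicate 2, 1856 and 653 without IGF1R-dnPI3K replicates 1 and 3). Of the members 2 passed: 1 with no filter, 0 with that block, and 1 to 3 with 1 array left out. In IGF1R-caPI3K over IGF1R mice 17 passed: 78 after quantile normalization, 3 with common median scaling, 0 with no filter (1766 of 12422 at an unadjusted p under 0.05), 7 with no mean trend, 699 with only the 2 groups compared, 1 with the block, and 0 to 549 with 1 array left out (90 and 549 without IGF1R-dnPI3K replicates 1 and 3, 0 or 1 without any array of the groups compared; the 0 counts came with 1067 to 1134 at an unadjusted p under 0.05). Of the members 1 passed: 0 with common median scaling, a pseudocount of 32, no filter or the block, 2 with only the 2 groups compared, and 0 to 2 with 1 array left out. In IGF1R-caPI3K over IGF1R-dnPI3K mice 98 passed: 36 with no filter, 45 with no mean trend, 13 with only the 2 groups compared, 8 with the block, and 10 to 537 with 1 array left out (537 without IGF1R-dnPI3K replicate 1, 10 to 65 without any other). Of the members 1 passed: 3 after quantile normalization, 0 with no filter, no mean trend, only the 2 groups compared or the block, and 0 to 3 with 1 array left out. With no filter, more probe sets are adjusted over; the cause of the other shifts was not tested.

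The direction turned for values that had not passed. In IGF1R-dnPI3K over IGF1R mice these were Dcn (-0.23 after quantile normalization, -0.11 with the block), Bgn 96049_at (0.10 with common median scaling, -0.18 to 0.07 with 1 array left out), Dpt (-0.06 to 0.14 with 1 array left out) and Tcf21 (0.10 with the block). In IGF1R-caPI3K over IGF1R mice Mgp was -0.01 after quantile normalization. In IGF1R-caPI3K over IGF1R-dnPI3K mice they were Chad (-0.01 after quantile normalization, 0.00 with common median scaling, -0.08 with the block, -0.06 to 0.21 with 1 array left out), Tcf21 (-0.06, -0.05, -0.28, and -0.11 to 0.13 under the same), Pdgfra 160332_at (-0.10 to 0.66 with 1 array left out) and Pdgfra 95079_at (-0.29 to 0.40 with 1 array left out). No paired analysis was possible because the titles give each mouse its own number and so pair no single mice; the number series of the mice was fitted as a block instead. Signals near the background of 63.9 limit Fmod and the dim Pdgfra probe sets.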
